A study of Mus musculus with 12 samples.

Results

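The 9 genes described here encode proteins by which leukocytes attach to the endothelium of blood vessels and by which endothelial cells hold to each other. They were chosen by name from the 23238 gene symbols of count tables of mouse lung: Icam1, Vcam1, Sele and Selp as inducible adhesion genes, and Cdh5, Pecam1, Cldn5, Esam and Icam2 as junction genes. All 9 had a single line in every table and passed the filter on low counts, which left 16484 genes. RNA was sequenced from lung in 4 groups of 3 libraries. The group NoIR received no irradiation, and the groups IR_8d, IR_11d and IR_14d were taken 8, 11 and 14 days after it, from irradiated regions of the lung. The sources used here give neither the region sampled in NoIR nor the dose, strain, age or sex. Replicates are numbered in the labels, but whether each is another animal is not said. The p-values therefore rest on differences between libraries that may be technical.

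Leukocytes leave the blood in steps. Selectins on activated endothelium slow them, the immunoglobulin-type proteins ICAM-1 and VCAM-1 bind their integrins and arrest them, and they then pass through the contacts between endothelial cells. The adhesion genes are known to be switched on by TNF and IL-1 through the transcription factor NF-kB, whereas the junction genes are expressed by resting endothelium. In lung, many leukocytes leave through capillaries, and ICAM-1 is also known on alveolar type 1 epithelium. P-selectin is also stored in platelets, PECAM-1 is also made by platelets and leukocytes, and ICAM-2 by both.

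On mm10 with the GENCODE M21 annotation, Sele (chromosome 1, 164048234 to 164057677) and Selp (chromosome 1, 164115264 to 164150026) lie in the selectin cluster, both on the plus strand. Icam1 lies on the plus strand of chromosome 9 at 21015985 to 21028817, and Vcam1 on the minus strand of chromosome 3 at 116109949 to 116129688. Cdh5 lies on the plus strand of chromosome 8 at 104101625 to 104144511, Esam on that of chromosome 9 at 37528078 to 37538319, and Cldn5 on that of chromosome 16 at 18776847 to 18778262. Pecam1 (106654217 to 106750628) and Icam2 (106377656 to 106388075) lie on the minus strand of chromosome 11. Antisense genes with counts of their own overlap Cdh5 and Selp. Gm29682 had 3 to 18 counts per library against 4969 to 25705 for Cdh5, whereas Gm16548 had 17 to 67 against 71 to 292 for Selp. The sources used here do not say whether the counting used the strand, so some Selp counts could come from its antisense partner.

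The promoters of 4 of the 9 genes were in the RefSeq table used (GRCm38.p6). Of these promoters, 3 belong to adhesion genes that rose together at 8 d and 11 d and the fourth to a junction gene that fell at 11 d and 14 d. All 4 are shown because they were the ones available. Each runs 5′ to 3′ from 250 bases before the start site to 50 bases after it, with motif matches in capitals. They lie at chr1:164047984-164048283 (Sele), chr1:164115014-164115313 (Selp), chr9:21015690-21015989 (Icam1) and chr16:18776597-18776896 (Cldn5), all on the plus strand.
Sele: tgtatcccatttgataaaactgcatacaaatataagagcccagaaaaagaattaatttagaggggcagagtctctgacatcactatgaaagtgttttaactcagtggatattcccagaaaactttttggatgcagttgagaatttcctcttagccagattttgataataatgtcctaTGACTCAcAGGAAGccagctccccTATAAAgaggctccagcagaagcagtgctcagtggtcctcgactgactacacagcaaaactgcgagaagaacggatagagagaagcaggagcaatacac
Selp: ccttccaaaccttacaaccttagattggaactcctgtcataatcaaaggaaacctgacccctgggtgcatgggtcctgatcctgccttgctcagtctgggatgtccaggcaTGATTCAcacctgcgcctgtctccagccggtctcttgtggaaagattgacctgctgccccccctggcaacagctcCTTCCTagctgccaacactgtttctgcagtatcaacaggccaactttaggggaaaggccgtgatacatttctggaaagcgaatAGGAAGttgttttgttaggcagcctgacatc
Icam1: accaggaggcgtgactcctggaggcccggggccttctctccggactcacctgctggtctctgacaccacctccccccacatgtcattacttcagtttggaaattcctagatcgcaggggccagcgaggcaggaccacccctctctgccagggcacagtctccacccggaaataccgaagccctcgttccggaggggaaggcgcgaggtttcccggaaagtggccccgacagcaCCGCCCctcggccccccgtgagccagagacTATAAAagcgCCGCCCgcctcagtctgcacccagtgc
Cldn5: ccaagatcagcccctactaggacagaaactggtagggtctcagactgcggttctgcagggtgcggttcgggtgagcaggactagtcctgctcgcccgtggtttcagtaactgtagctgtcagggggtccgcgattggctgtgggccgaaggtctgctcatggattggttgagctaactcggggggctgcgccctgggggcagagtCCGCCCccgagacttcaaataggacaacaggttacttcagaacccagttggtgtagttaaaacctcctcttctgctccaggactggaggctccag

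Motifs were searched on both strands. AGGAAG is a form of the site bound by ETS factors. TGANTCA is the AP-1 motif. TATAAA is the TATA box. GGGCGG is the GC box. The NF-kB consensus was searched as GGGRNNYYCC, where R is A or G, Y is C or T and N is any base. In the Sele promoter, TGACTCA began at -73, AGGAAG at -65 and TATAAA at -49, counted from the start site. The Selp promoter held TGATTCA at -139 and AGGAAG on the minus strand at -64 and on the plus strand at 20. The Icam1 promoter held the GC box on the minus strand at -17 and 24, and TATAAA at 14. The RefSeq start of Icam1 lies 45 bases before the GENCODE start, so that this TATAAA lies 32 bases before the latter. The Cldn5 promoter held a GC box on the minus strand at -45 and none of the other 4 motifs. Among all 32851 windows of this length, 35.4% held AGGAAG, 7.81% the AP-1 motif, 13.6% TATAAA, 35.7% the GC box and 8.46% the NF-kB consensus. The NF-kB consensus was in none of the 4 members' windows, which says only that no exact match to this pattern is there. Sites that deviate from the pattern were not searched for, so the windows may still hold NF-kB sites. The same limit applies to AGGAAG, so windows without it, such as that of Icam1, may still hold other forms of ETS sites. The motifs have not been tested for binding in these data.

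Depth was 19624554 to 27765751 counts per library. No pair of libraries of a group agreed within sampling noise. Replicate 1 of IR_11d had the lowest level of all 5 junction genes among the 11 d libraries. The 25 markers of blood vessel endothelium were detected in every group. Levels are given as CPM (counts per 1e+06 counts) on scaled library sizes, changes as log2 differences ± SE from a fit of all 12 libraries, and a gene is called at an adjusted p below 0.05. All 9 genes were called in the test for any difference among the 4 groups, as were 39.2% of the genes tested.

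All 4 adhesion genes rose at 8 d and again stood above NoIR at 11 d, by 1.04 or less on the log2 scale for Icam1 and Vcam1 and by 1.40 to 1.90 for the selectins. They were called higher at 8 d and at 11 d in 4 of 4 cases, against 13% of all genes called higher at 8 d and 19.4% at 11 d. At 14 d Vcam1 and Selp were still called higher, 2 of 4 where 20% of all genes were, and Icam1 and Sele were not.

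Sele encodes E-selectin, which endothelium makes after stimulation by cytokines. It was the least abundant of the 9 per kilobase of exon, with 22, 33 and 34 counts in the NoIR libraries (0.829, 1.22 and 1.23 CPM). It stood at 2.95, 3.51 and 5.09 CPM at 8 d, at 2.03, 3.66 and 3.01 CPM at 11 d, and at 1.30, 2.04 and 1.002 CPM at 14 d. All libraries of 8 d and 11 d were above all NoIR libraries, and those of 14 d overlapped NoIR. The change from NoIR was 1.81 ± 0.33 at 8 d (adjusted p = 0.00121) and 1.40 ± 0.33 at 11 d (adjusted p = 0.00455). At 14 d it was 0.41 with a 95% interval of -0.32 to 1.15 (adjusted p = 0.377), an interval that includes a doubling as well as no change. Its level at 14 d was lower than at 8 d by a log2 difference of -1.40 ± 0.32 (adjusted p = 0.00919), a difference that was no longer called without replicate 3 of IR_8d, the library with the highest value (-1.15, adjusted p = 0.0534).

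Selp encodes P-selectin, which endothelium and platelets hold in granules and bring to the surface on activation. The NoIR libraries held 2.98, 2.62 and 3.76 CPM. The values were 8.76, 9.999 and 11.4 CPM at 8 d, 11.0, 13.7 and 10.3 CPM at 11 d, and 8.23, 6.56 and 6.18 CPM at 14 d. Every irradiated library was above every NoIR library, and every 14 d library was below those of 8 d and 11 d. Selp had the largest change of the 4 genes at 11 d, 1.90 ± 0.19 (adjusted p = 6.66e-06), after 1.69 ± 0.19 at 8 d (adjusted p = 4.28e-05), and at 14 d it was 1.16 ± 0.19 (adjusted p = 0.000264). Its difference at 14 d was not called by edgeR against 11 d (-0.74, adjusted p = 0.0591) or against 8 d (-0.53, adjusted p = 0.0713), but DESeq2 called the former (adjusted p = 0.0111), and edgeR scaled by library size alone called the latter (adjusted p = 0.0494). The 13 platelet and megakaryocyte markers summed to 76.3 to 90.6 CPM in NoIR, 78.3 to 98.2 CPM at 8 d, 81.7 to 89.1 CPM at 11 d and 63.7 to 77.4 CPM at 14 d. Of these markers 0 were called at 8 d by edgeR and by DESeq2, while 2 had an unadjusted p below 0.05. At 8 d, 1 was called lower without IR_8d replicate 1 or IR_14d replicate 2, and 1 higher without IR_14d replicate 3. In the fit of all libraries 1 of the 13 was called higher and 2 lower at 11 d, beside 19.4% and 17.8% of all genes. At 14 d 1 was called higher and 5 lower, beside 20% and 18.9% of all genes. The gene called higher was Pf4, platelet factor 4 (0.83 at 11 d and 0.70 at 14 d). Its 14 d call was lost under 9 of 21 alternatives and its 11 d call without NoIR replicate 1 or 3 or IR_11d replicate 1, and the count of 5 lower was 3 without NoIR replicate 2 and 2 without IR_14d replicate 2. No platelet marker was at 0 throughout a group.

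Vcam1 encodes the endothelial ligand of the integrins that contain Itga4, which lymphocytes and monocytes carry. It held 58.7, 57.6 and 49.5 CPM in NoIR and 95.4, 126 and 119 CPM at 8 d. It held 108, 85.7 and 108 CPM at 11 d and 112, 106 and 155 CPM at 14 d. Every irradiated library was above every NoIR library, and the 3 irradiated groups overlapped each other. The change from NoIR was 1.04 ± 0.16 at 8 d (adjusted p = 0.000465), 0.86 ± 0.16 at 11 d (adjusted p = 0.000951) and 1.17 ± 0.16 at 14 d (adjusted p = 5.7e-05). Between 14 d and 8 d the difference was 0.14 with a 95% interval of -0.21 to 0.48 (adjusted p = 0.644).

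Icam1 encodes the ligand of the integrins that contain Itgb2, and it was the most abundant of the 4 adhesion genes per kilobase of exon. It held 385, 369 and 355.5 CPM in NoIR and 568, 600.3 and 596 CPM at 8 d. It held 519, 591 and 555 CPM at 11 d and 385, 455 and 346 CPM at 14 d. The 8 d and 11 d libraries were all above NoIR and overlapped each other, whereas the 14 d libraries spanned the NoIR values. The change was 0.67 ± 0.13 at 8 d (adjusted p = 0.00164) and 0.59 ± 0.13 at 11 d (adjusted p = 0.00235). At 14 d it was 0.10 with a 95% interval of -0.17 to 0.37 (adjusted p = 0.587), and its sign turned without replicate 2 of IR_14d. The level at 14 d was lower than at 8 d by a difference of -0.57 ± 0.13 (adjusted p = 0.00702). The 10 markers of alveolar type 1 epithelium, a known site of ICAM-1, summed to 8462 to 8517 CPM in NoIR, 5208 to 6017 CPM at 8 d, 4462 to 5717 CPM at 11 d and 3637 to 4239 CPM at 14 d, and their part in the level of Icam1 was not tested.

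**Figure D1:**
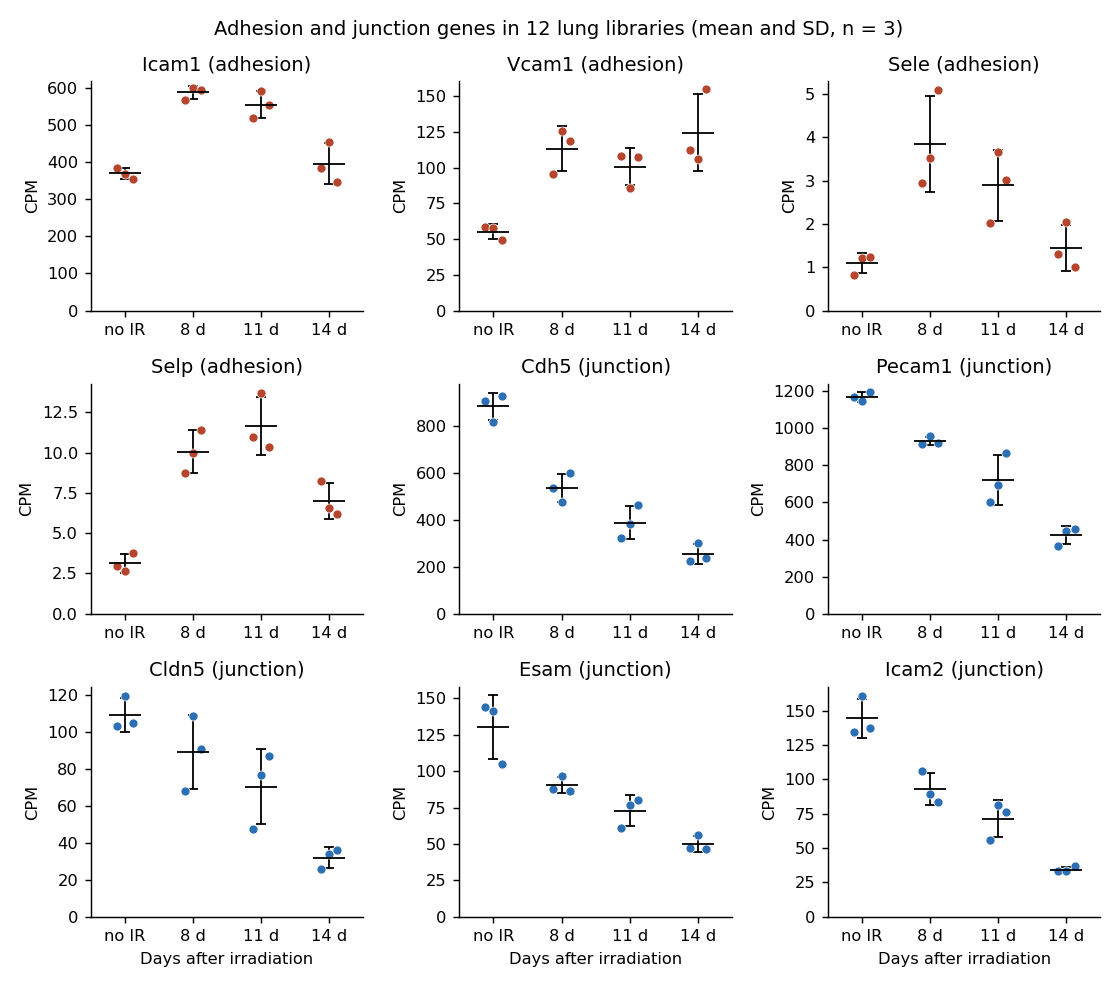
Each panel plots the level of 1 gene in CPM (vertical axis, from 0) in the 3 libraries of unirradiated lung and of lung 8, 11 and 14 days after irradiation, as points, with the mean and SD as lines, adhesion genes in red and junction genes in blue. Icam1 and Sele stood highest at 8 d and overlapped the unirradiated values at 14 d, Vcam1 and Selp stayed above them, and the means of the 5 junction genes decreased from group to group.

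The junction genes fell, 3 of them by 8 d and all 5 by 11 d. At 8 d Cdh5, Esam and Icam2 fell, 3 of 5 where 10.6% of all genes were called lower. At 11 d 5 of 5 fell against 17.8% of all genes, and at 14 d 5 of 5 against 18.9%, by -1.39 to -2.07 on the log2 scale at 14 d. Levels in whole tissue are relative to all RNA of the library. Fewer endothelial cells, less RNA per endothelial cell and more RNA from other cells therefore cannot be told apart. This holds for each gene that follows.

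Cdh5 encodes VE-cadherin, the adhesive protein of endothelial adherens junctions. It held 910, 820 and 929 CPM in NoIR, 535, 477 and 599 at 8 d, 322, 382 and 465 at 11 d, and 224, 303 and 236 at 14 d. Each group lay wholly below the one before it. As a share of the NoIR mean, the level was 60.6% at 8 d, 44% at 11 d and 28.7% at 14 d. Log2 changes were -0.72 ± 0.16 (adjusted p = 0.00533), -1.19 ± 0.16 (adjusted p = 7.57e-05) and -1.80 ± 0.17 (adjusted p = 1.65e-06) at the 3 times.

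Pecam1 encodes CD31, which joins endothelial cells at their borders and takes part in the passage of leukocytes. Its libraries held 1170, 1145 and 1197 CPM in NoIR, 915, 958 and 923 at 8 d, 601, 696 and 866 at 11 d, and 367, 448 and 458.5 at 14 d. The 8 d libraries were all below NoIR, but the change of -0.33 ± 0.15 was not called (adjusted p = 0.126). It was -0.70 ± 0.15 at 11 d (adjusted p = 0.00206) and -1.46 ± 0.15 at 14 d (adjusted p = 3.57e-06). The 12 markers of leukocytes, cells that can also carry CD31, summed to 8163 to 9108 CPM in NoIR and 7318 to 8581 CPM at 8 d. Their sum was 10500 to 15680 CPM at 11 d and 18920 to 24460 CPM at 14 d. Of these markers 11, 11 and 12 were called higher at 8, 11 and 14 d, beside 13%, 19.4% and 20% of all genes. Most of that sum was Lyz2, a lysozyme gene that alveolar type 2 cells also express, with 7484 to 8310 CPM in NoIR and 5988 to 6972 CPM at 8 d. The part of leukocyte RNA in the Pecam1 level was not tested.

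Cldn5 encodes claudin-5, the main claudin of endothelial tight junctions. It held 103, 119 and 104.8 CPM in NoIR and 68.0, 108 and 90.8 CPM at 8 d. It held 47.5, 76.5 and 86.6 CPM at 11 d and 25.8, 34.1 and 36.1 CPM at 14 d. The 8 d libraries overlapped both their neighbours, and the change of -0.29 was not called, with a 95% interval of -0.75 to 0.16 (adjusted p = 0.357). At 11 d the change was -0.64 ± 0.21 (adjusted p = 0.0305), a call that was lost when any single NoIR replicate was left out (adjusted p = 0.0533 to 0.0951) or replicate 1 of IR_11d (adjusted p = 0.13). At 14 d it was -1.77 ± 0.22 (adjusted p = 1.91e-05), with every library below all others.

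Esam encodes an immunoglobulin-type protein of endothelial tight junctions and platelets. It held 144, 141.5 and 105.0 CPM in NoIR, 87.7, 96.6 and 86.4 at 8 d, 60.7, 77.1 and 80.5 at 11 d, and 46.95, 56.1 and 46.6 at 14 d. Each group lay wholly below the one before it, as for Cdh5. The change at 8 d, -0.53 ± 0.15, was called with an adjusted p of 0.0187, and the call was lost without NoIR replicate 1 (0.0868), NoIR replicate 2 (0.0762) or IR_8d replicate 3 (0.0619). It was -0.84 ± 0.15 at 11 d (adjusted p = 0.000562) and -1.39 ± 0.15 at 14 d (adjusted p = 6.14e-06).

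Icam2 encodes an integrin ligand that resting endothelium expresses at its junctions. Its libraries held 135, 161 and 138 CPM in NoIR, 106, 89.2 and 83.4 at 8 d, 56.0, 81.7 and 76.5 at 11 d, and 33.1, 33.5 and 36.6 at 14 d. The groups again did not overlap. It had the largest decrease of the 9 genes at 14 d, -2.07 ± 0.15 (adjusted p = 3.4e-07), after -0.64 ± 0.15 at 8 d (adjusted p = 0.00645) and -1.02 ± 0.15 at 11 d (adjusted p = 0.000126). The 14 d mean was 23.8% of that of NoIR, whereas the mean of Icam1 was 107% of it.

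Read over all 9 genes, the libraries of all 4 adhesion genes lay above NoIR without overlap at 8 d, against 19.8% of all genes, and at 11 d, against 28.2%. At 14 d this held for 2 of 4, against 25.8%. Of the junction genes, 4 of 5 lay below NoIR without overlap at 8 d, against 18.5% of all genes, 5 of 5 at 11 d, against 26.7%, and 5 of 5 at 14 d, against 25%.

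**Figure D2:**
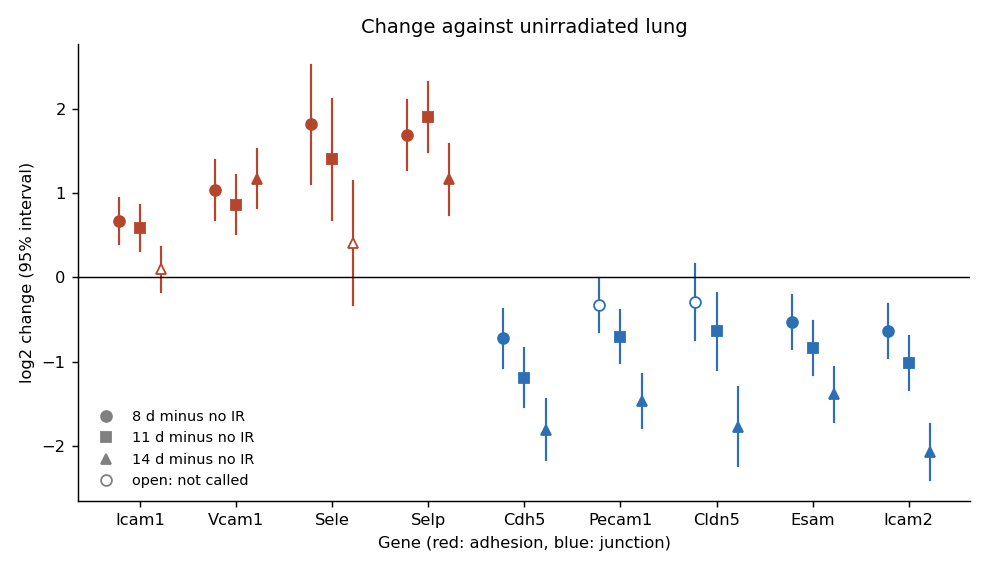
The log2 change of each gene from unirradiated lung (vertical axis) is plotted at 8 d (circles), 11 d (squares) and 14 d (triangles) with its 95% interval, adhesion genes in red and junction genes in blue, and open symbols for changes that were not called. The 4 adhesion genes lie above 0 and the 5 junction genes below it, and the open symbols are Icam1 and Sele at 14 d and Pecam1 and Cldn5 at 8 d.

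Between 8 d and 11 d none of the 9 genes was called by edgeR, where 2.14% of all genes were. At an unadjusted p below 0.05, 3 of them passed (Cdh5 -0.46, Pecam1 -0.37 and Icam2 -0.38), as did 15.8% of all genes, and DESeq2 also called 0 of the 9. For 4 of the 5 junction genes, all except Cldn5, the 11 d libraries were nevertheless all below those of 8 d, against 8.72% of all genes. Between 11 d and 14 d Pecam1 (-0.76, adjusted p = 0.022), Cldn5 (-1.13, adjusted p = 0.0203) and Icam2 (-1.05, adjusted p = 0.0065) fell, 3 of 5 against 0.983% of all genes. All 5 junction genes lay lower at 14 d than at 11 d without overlap, against 11.7% of all genes. None of the 3 calls held without replicate 1 of IR_14d (adjusted p = 0.14, 0.131 and 0.0562), and those of Pecam1 and Cldn5 were also lost without replicate 2 of IR_14d or replicate 2 or 3 of IR_11d (adjusted p = 0.055 to 0.122). Between 8 d and 14 d all 5 junction genes fell, by -0.85 (Esam) to -1.48 (Cldn5), and so did Icam1 and Sele, 7 of 9 against 7.29% of all genes.

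The distance between both sets of genes was followed library by library as the mean log2(CPM + 0.5) of the 4 adhesion genes minus that of the 5 junction genes. It was -4.02, -4.04 and -3.88 in NoIR and -2.46, -2.33 and -2.14 at 8 d. It was -1.82, -2.01 and -2.25 at 11 d and -1.49, -1.68 and -1.78 at 14 d. All irradiated libraries lay above all NoIR libraries, while 8 d overlapped 11 d. The adhesion mean was highest at 8 d, 5.18 to 5.54 against 4.17 to 4.25 in NoIR, and stood at 4.76 to 4.93 at 14 d. The junction mean went from 8.13 to 8.25 in NoIR to 6.34 to 6.62 at 14 d, so that the later narrowing accompanied lower junction levels and not higher adhesion levels.

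Both sets were also set against the mean of the 25 markers of blood vessel endothelium, which contain none of the 9 genes. That mean was 7.09 to 7.21 in NoIR, then 6.42 to 6.44 at 8 d, then 5.76 to 6.23 at 11 d and finally 5.26 to 5.51 at 14 d. The junction mean exceeded it by 1.03 to 1.04 in NoIR, then 1.21 to 1.31 at 8 d, then 1.16 to 1.30 at 11 d and finally 1.08 to 1.16 at 14 d. The junction genes thus lay close to the other endothelial markers throughout, slightly further above them in every irradiated library than in NoIR. The adhesion mean lay below the endothelial mean by a difference of -3.01 to -2.84 in NoIR, then -1.25 to -0.90 at 8 d, then -0.95 to -0.60 at 11 d and finally -0.62 to -0.42 at 14 d. On this scale Icam1, whose CPM at 14 d overlapped NoIR, stood 1.39, 1.66 and 1.86 above its NoIR value at 8, 11 and 14 d, and Vcam1 stood 1.74, 1.93 and 2.91 above it. Selp stood 2.27, 2.83 and 2.82 above its NoIR value and Sele 2.15, 2.15 and 2.03, so that not every adhesion gene stood highest at 14 d. Among the junction genes, Cdh5 differed from its NoIR value by -0.007, -0.12 and -0.044, and Pecam1 by 0.39, 0.36 and 0.30. Cldn5 differed by 0.41, 0.41 and 0.004, Esam by 0.20, 0.25 and 0.40, and Icam2 by 0.082, 0.054 and -0.28. These differences assume that the levels come from endothelium alone, which was not tested, and they carry no test of their own.

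**Figure D3:**
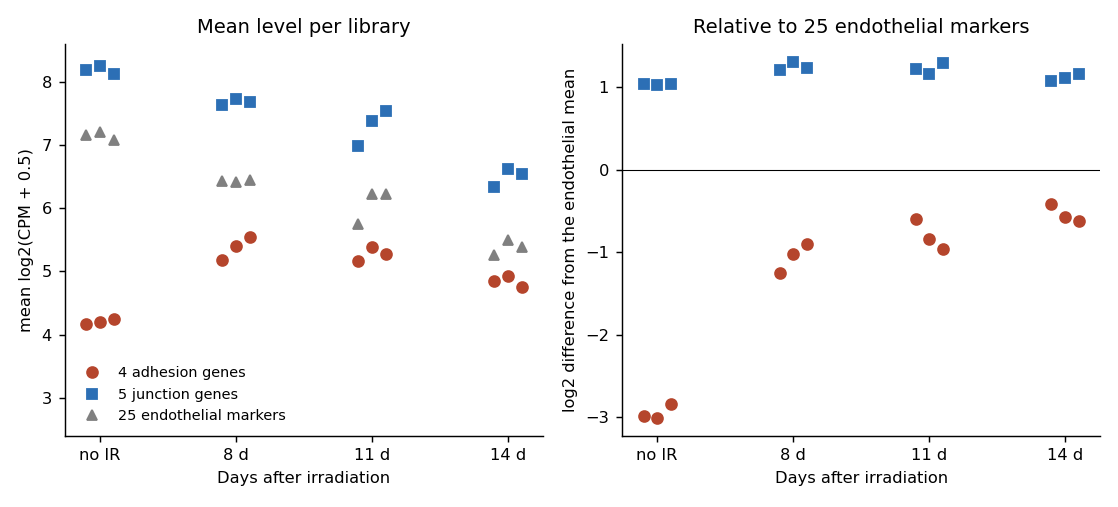
The left panel plots the mean log2(CPM + 0.5) per library of the 4 adhesion genes (red circles), the 5 junction genes (blue squares) and 25 other endothelial markers (grey triangles), and the right panel the difference of the first and the second from the third. The junction genes stay 1.03 to 1.31 above the endothelial mean in all libraries, while the adhesion genes go from -3.01 to -2.84 in unirradiated lung to -0.62 to -0.42 at 14 d.

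Levels of different genes were compared per kilobase of merged exons. In NoIR the order was Cdh5 (211 CPM per kilobase), Pecam1 (188), Icam1 (84.9), Cldn5 (77.0), Icam2 (75.9), Esam (45.4), Vcam1 (6.23), Selp (0.707) and Sele (0.375). The ranges of Cldn5 and Icam2 overlapped, as did those of Icam1 and Cldn5. At 8 d Pecam1 (150.0), Icam1 (135) and Cdh5 (128) led. At 11 d and 14 d Icam1 had the highest mean, 127 and 90.7 CPM per kilobase, ahead of Pecam1 with 116 and 68.2 and Cdh5 with 92.7 and 60.5, with ranges that overlapped those of Pecam1 at 11 d and not at 14 d. The ratio of Icam1 to Cdh5 per kilobase went from 0.402 in NoIR to 1.05 at 8 d and 1.37 at 11 d, and reached 1.5 at 14 d.

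Counts of called genes in the lists that follow are read beside the shares of all genes called. These were 13%, 19.4% and 20% higher and 10.6%, 17.8% and 18.9% lower at 8, 11 and 14 d. The leukocyte side of the same contacts was read from 13 genes. Of these genes for the integrins, selectin ligands and other receptors that bind the 9 proteins, 9, 10 and 11 rose at 8, 11 and 14 d, with median changes of 0.78, 1.33 and 1.58, beside medians of 0.01, -0.01 and 0.01 over all genes tested. Itgb1 (-0.04, -0.01 and -0.27) and Itga9 (-0.13, -0.25 and -0.18), both integrin chains, were not called at any time, and DESeq2 called 1 of the 13 lower at 14 d. Selplg, the ligand of P-selectin on leukocytes, rose from 25.6 CPM to 70.6, 86.2 and 99.6 (1.46 ± 0.13, adjusted p = 6.94e-06 at 8 d). Itgam, which pairs with Itgb2 to bind ICAM-1, rose from 22.5 CPM to 84.7, 238 and 236.5, and Itgb2 from 135 to 231, 431 and 608. Itgb7, which pairs with Itga4, rose from 7.02 to 20.96, 23.5 and 27.0 CPM. Of the 12 leukocyte markers given above 11, 11 and 12 rose in the same comparisons (Lyz2 was not called at 8 d, -0.32, or at 11 d, 0.39), and their part in these levels was not tested.

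The 10 enzymes that build the carbohydrate ligands of selectins divided. At 14 d 5 were higher and 5 lower, after 5 and 4 at 11 d and 3 and 3 at 8 d. Of all genes 20% and 18.9% were called higher and lower at 14 d, 19.4% and 17.8% at 11 d, and 13% and 10.6% at 8 d. Fut4, a fucosyltransferase of leukocytes, rose from 4.86 CPM to 8.13, 12.2 and 12.4, and Gcnt1, which branches O-glycans, from 10.3 to 16.2 and 21.9 CPM at 11 and 14 d. Chst4, a sulfotransferase known from high endothelial venules, fell from 10.2 CPM to 3.27, 1.74 and 0.940 (-3.42 ± 0.42, adjusted p = 1.72e-05 at 14 d). St3gal6, a sialyltransferase, fell by changes of -0.68, -0.99 and -1.45, and at 11 d Chst2 (-0.81) and Tpst1 (-0.48) were lower too. The count of enzymes higher at 8 d was 1 without NoIR replicate 1 or 3 or IR_8d replicate 2, and that at 11 d was 3 without NoIR replicate 1 or IR_11d replicate 1.

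Of 12 further endothelial adhesion and transmigration genes tested, 5, 8 and 7 fell at 8, 11 and 14 d, beside 10.6%, 17.8% and 18.9% of all genes, with medians of -0.27, -0.53 and -0.69. At 8 d and 11 d 2 rose, a share near the 13% and 19.4% of all genes called higher. Podxl, a sialomucin of endothelium, fell from 392 CPM to 240.0, 184 and 127, and Jam2, a junctional adhesion molecule, from 73.7 to 41.6, 41.5 and 36.0. Cx3cl1, the membrane-bound chemokine fractalkine, fell from 27.0 to 15.1, 11.2 and 8.88 CPM. Cd34 is a sialomucin of endothelium and of progenitor cells. It rose from 215.5 CPM to 654.5 at 8 d (1.60 ± 0.19, adjusted p = 4.75e-05) and 384 at 11 d, and its 243 CPM at 14 d were not called (0.17, adjusted p = 0.497). Icam5 was also higher at 8 d (1.85), though near the floor, with 0.307 CPM in NoIR and 1.12 CPM at 8 d. Cd47 was higher at 11 d (0.31), where 11 of 21 alternatives left 1 gene higher.

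Among 27 partners of the junction, 13, 19 and 22 fell at 8, 11 and 14 d, beside 10.6%, 17.8% and 18.9% of all genes. Their medians were -0.45, -0.69 and -0.85. Each time 2 rose, a smaller share than the 13%, 19.4% and 20% of all genes called higher. Ptprb, the endothelial phosphatase that binds VE-cadherin, fell from 1146 CPM to 334, 316 and 232 (-1.78 ± 0.22, adjusted p = 7.32e-05 at 8 d), a larger change at 8 d than that of Cdh5, although the difference between the 2 genes was not tested. Rasip1, which takes part in vessel lumen formation, fell by changes of -0.62, -1.01 and -1.91, and N-cadherin (Cdh2) by -0.52, -0.98 and -1.20. Pcdh12, an endothelial protocadherin, was not called at 8 d (0.13) and fell at 11 d (-0.73) and 14 d (-1.31). The 2 genes that rose were Gja1, the gap junction protein connexin 43 (0.88, 0.92 and 0.49), and Ccm2, a gene of cerebral cavernous malformation (0.61, 0.67 and 0.61). The count of partners higher at 14 d was 1 without NoIR replicate 1 or 2 or IR_14d replicate 2. The count lower at 8 d was 7 without NoIR replicate 1 and 8 without IR_8d replicate 2.

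Of 6 genes for proteases that cut adhesion molecules from the cell surface and their regulators, 4 rose and 2 fell at 14 d. Of all genes 20% were called higher there and 18.9% lower. Adam8, a leukocyte protease, rose from 9.01 CPM to 27.5, 47.4 and 48.8. Adam17 rose at 11 d (0.93) and 14 d (1.14) and Adam10, which cuts VE-cadherin, at 14 d (0.85). Timp3, an inhibitor of Adam17, fell from 1559 CPM to 881, 914 and 786. Its NoIR libraries held 1769, 1839 and 1069 CPM, and those of 11 d, with up to 1080 CPM, overlapped them. The count lower at 14 d was 1 without NoIR replicate 1 or IR_14d replicate 1 or 3.

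Cytokines known to induce the adhesion genes were read with their receptors and signalling genes. Of 13 tested, 7, 9 and 8 rose at 8, 11 and 14 d and 6, 4 and 5 were not called, with medians of 0.52, 1.29 and 1.23. Tnf rose from 0.494 CPM to 2.33, 5.70 and 1.80, highest at 11 d, where the change was 3.52 ± 0.35 (adjusted p = 5.63e-06). Its receptor gene Tnfrsf1b rose from 39.6 to 78.3, 131 and 198 CPM, Ltb, which encodes lymphotoxin beta, from 1.85 to 7.38, 9.91 and 8.75, and Il1a at 11 d (1.29) and 14 d (1.23). At 8 d Il1a was not called (0.26, adjusted p = 0.367), whereas Il1b rose from 3.97 to 34.1 CPM (3.09 ± 0.54, adjusted p = 0.000911). Il1b then stood at 21.4 CPM at 11 d (2.42 ± 0.53, adjusted p = 0.00269) and 9.39 CPM at 14 d. Its 14 d libraries (9.58, 5.997 and 12.6 CPM) overlapped those of NoIR (1.66, 1.88 and 8.38 CPM). Ifng, near the floor in NoIR (0.0623 CPM), stood at 1.11, 0.722 and 0.729 CPM at the 3 times. Of 14 genes of NF-kB subunits, inhibitors and feedback proteins, 9, 10 and 10 rose, beside 13%, 19.4% and 20% of all genes. At 14 d 1 fell, beside 18.9% of all genes. Bcl3 (5.49 CPM to 22.4, 21.3 and 15.1), Nfkbie (6.46 to 25.9, 33.9 and 24.9), Nfkb2 (29.7 to 84.1, 98.2 and 82.4) and the feedback inhibitor Tnfaip3 (22.3 to 40.1, 57.4 and 49.0) rose at all 3 times. Nfkbia, which encodes the inhibitor IκBα, was lower at 14 d (-1.32, adjusted p = 0.0129), with libraries that overlapped NoIR, a call that was lost without NoIR replicate 1 or IR_14d replicate 1.

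Of 8 transcription factors of resting endothelium, 5, 7 and 7 fell at 8, 11 and 14 d, beside 10.6%, 17.8% and 18.9% of all genes. Their medians were -0.64, -1.07 and -1.41. Klf2, a factor induced by blood flow, fell from 114 CPM to 75.5, 43.5 and 24.6, and Gata2 from 123.4 to 37.4, 38.6 and 18.6. Foxf1, a factor of lung vessels, fell by changes of -0.97, -1.37 and -2.42, and Ets2 by -0.91, -1.23 and -1.67. Fli1, an ETS factor of endothelium and blood cells, was higher at 11 d (0.56, adjusted p = 0.0322), a call that was lost when any single NoIR replicate, or IR_11d replicate 1 or 2, was left out. Without NoIR replicate 1, 3 of the 8 were lower at 8 d.

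**Figure D4:**
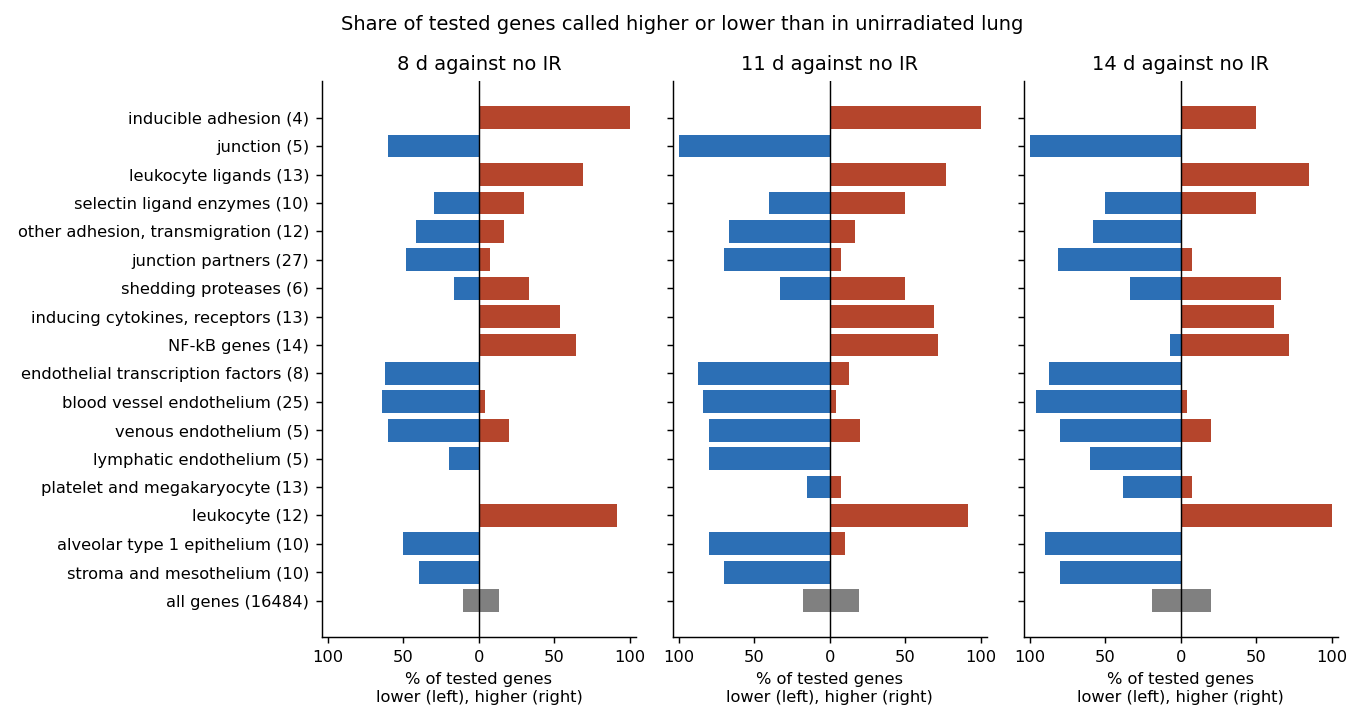
Bars give the share of the tested genes of each list called lower (left, blue) or higher (right, red) than in unirradiated lung at 8, 11 and 14 d, in percent, with the number tested in parentheses and all genes in grey at the bottom. All 4 adhesion genes were higher at 8 d and 11 d and all 5 junction genes lower at 11 d and 14 d, where 19.4% of all genes were higher and 17.8% lower at 11 d.

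Markers of the cell types moved as follows. Of the 25 markers of blood vessel endothelium 16, 21 and 24 fell at 8, 11 and 14 d, with medians of -0.77, -1.13 and -1.86, and their summed level was 6375 to 6561 CPM in NoIR, 3325 to 3525 CPM at 8 d, 2148 to 3030 CPM at 11 d and 1480 to 1712 CPM at 14 d. Tek and Sox17 were among those that fell at all 3 times, as was Clec14a, an endothelial surface lectin (273 CPM to 110, 80.8 and 52.2). Mmrn2, an endothelial matrix protein, was the only one of the 25 called higher, from 54.2 CPM to 192, 122 and 82.6, and its 14 d call was lost without IR_14d replicate 2. Of the 10 alveolar type 1 markers 5, 8 and 9 fell (8 at 8 d by DESeq2), and of 10 markers of stroma and mesothelium 4, 7 and 8 fell, with summed levels of 1394 to 1429 CPM in NoIR, 777 to 1062 CPM at 8 d, 615 to 782 CPM at 11 d and 557 to 698 CPM at 14 d. The count of stromal markers lower at 8 d was 2 when any single NoIR replicate, IR_8d replicate 2 or 3 or IR_14d replicate 1 was left out. The part of cell composition in the levels of the 9 genes was not tested.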

How the data were processed

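The authors deposited whole-number counts per gene symbol, made from TopHat alignments to mm10 per the submitters' processing notes. The sources used here name no version, counting program, annotation or strand setting. Libraries were made from total RNA with a directional kit, per the labels' protocols. Symbols on several lines (35) were summed, none of them a member. Comparisons used edgeR 4.0.16 (R 4.3.3) and its quasi-likelihood F test, with all 12 libraries in 1 fit, the default expression filter, TMM scaling and Benjamini-Hochberg adjustment over 16484 genes, called below 0.05. The SE was taken from F (its root divides the absolute log2 change), and CPM use scaled library sizes. Depth ran from 19624554 to 27765751 counts. The fit was tested on simulated data.

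The members and lists were chosen with earlier results of these data known. All 9 members are named. Of each list up to 4 genes with the lowest p over the 4 groups and a mean of at least 1 CPM are named, with genes called against their list. Not all of these are printed, and some further genes of the lists, such as Il1b, Ifng and Prox1, are given as well. Lists are described by counts and medians, with no test. Madcam1, Glycam1, Il4, Il13 and Ackr1 did not pass the filter, and Cd99 was not analysed here. The alternatives changed the scaling (median of ratios, or library size alone), the filter (none, or stricter), the tool (DESeq2 1.42.0, or voom of limma 3.58.1) or the design (a replicate block, or only the compared groups), with a fit without Rn45s and haemoglobin genes, and each library left out.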

Additional observations from a re-analysis of the deposited data

Results flagged for a closer look

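For 7 genes the change from unirradiated lung differed between times by the test of that difference, in 10 comparisons. The 3 comparisons of 14 d with 11 d and the 7 of 14 d with 8 d all had negative differences. At 14 d against 11 d they were -0.76 for Pecam1, -1.13 for Cldn5 and -1.05 for Icam2. At 14 d against 8 d they were -0.57 for Icam1 and -1.40 for Sele among the adhesion genes, and -1.08 for Cdh5, -1.13 for Pecam1, -1.48 for Cldn5, -0.85 for Esam and -1.43 for Icam2 among the junction genes. By edgeR with TMM scaling and all libraries, Vcam1 and Selp were not called between any 2 times. Groups of 3 libraries are too small for a test of single outlying libraries.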

How the results depend on the processing

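Over 21 alternatives the 9 genes gave 1134 comparisons, of which 1106 kept their direction and their side of the threshold, 18 lost a call, 8 gained one and 2 turned sign while not called. The signs that turned were Icam1 at 14 d against NoIR without IR_14d replicate 2 (-0.017, of a range over left-out libraries up to 0.18) and Vcam1 at 14 d against 8 d without IR_14d replicate 3 (-0.055, of a range up to 0.24). The adhesion genes higher at 8, 11 and 14 d stayed at 4, 4 and 2 under all alternatives, and the junction genes lower stayed at 5 at 14 d. With 1 library left out, the junction genes lower were 2 to 3 at 8 d and 4 to 5 at 11 d. Those lower at 14 d against 11 d were 0 to 5 with 1 library left out and 5 by DESeq2, which there also called Icam1 (adjusted p = 0.00247), Selp (0.0111), Cdh5 (0.00891) and Esam (0.0227). Without IR_11d replicate 1, Icam1 (0.0498), Cdh5 (0.0264) and Esam (0.0291) were called there too. Pecam1 at 14 d against 11 d was not called with just both groups in the fit (0.0549), and Selp at 14 d against 8 d was called with library size alone (0.0494).

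Counts over all genes depended most on single libraries between times. At 11 d against 8 d, 353 genes became 868 by DESeq2, 143 with just both groups in the fit and 2 to 545 with 1 library left out, the lowest without IR_8d replicate 3. At 14 d against 11 d, 296 became 827 by DESeq2 and 13 to 681 with 1 library left out, and at 14 d against 8 d 2536 became 1392 to 2599. At 8 d against NoIR 3891 became 2593 to 3997. With library size alone the median change of all genes at 11 d against 8 d was -0.102, and 60.6% of the calls there were higher, against 81.6% otherwise. Of the list counts, 1819 stayed within 1.5 times and 71 did not. The cause of these shifts was not tested.

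The replicate block gave 3704 genes at 8 d, 5921 at 11 d and 6288 at 14 d against NoIR, and it changed no call of the 9 genes. Of 18 pairs of libraries with the same number, 5 correlated above 0.1 (range -0.353 to 0.287), as did 7 of 36 pairs with other numbers (range -0.436 to 0.462), so the numbers were not taken as pairs. As a hint from the data in the other direction, 8 of 12 libraries were closest to one with their own number. Depth limits Sele, with 22 to 34 counts per NoIR library.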

Other observations

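The genes whose levels followed each member most closely were found by Pearson's r of log2 CPM over the 12 libraries, among genes that averaged 5 CPM or more. The libraries share 4 groups, so that a high r mainly reflects the differences between groups, and no test is given. Icam1 was closest to Itih4 (0.926), Lmna (0.922) and Abcf2 (0.917). Sele was closest to Tubb4b (0.913), Mmrn2 (0.911) and Sdc1 (0.91). Selp was closest to Ifit1 (0.971), an interferon-induced gene, Arid5a (0.969) and Ccl2 (0.961), a monocyte chemokine. Vcam1 was closest to Serpine2 (0.977), Trp53inp1 (0.972), a p53 target, and Kcne4 (0.958). The highest r was 0.978 to 0.996 for the junction genes and 0.913 to 0.977 for the adhesion genes, so that Cldn5 and Vcam1 hardly differed. Cdh5 was closest to Eml1 (0.996), Esam to Tmcc2 (0.992), Pecam1 to Tspan13 (0.988), Icam2 to Gpr182 (0.985) and Cldn5 to Egfl7 (0.978), an endothelial secreted protein.

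Venous and lymphatic markers were read as well. Of 5 venous markers tested, 3, 4 and 4 fell at 8, 11 and 14 d, beside 10.6%, 17.8% and 18.9% of all genes. Each time 1 rose, beside 13%, 19.4% and 20% of all genes. The gene that rose was Lrg1, a glycoprotein known from high endothelial venules, from 14.0 CPM to 63.5, 67.8 and 40.1 (2.19 ± 0.22, adjusted p = 1.22e-05 at 8 d). Vwf, the von Willebrand factor stored with P-selectin in endothelial granules, fell from 396 CPM to 162, 162 and 126, and Slc6a2 from 58.7 to 13.5, 14.0 and 9.79. Of 5 lymphatic markers 1, 4 and 3 fell at 8, 11 and 14 d, beside 10.6%, 17.8% and 18.9% of all genes. Among them was Lyve1, the hyaluronan receptor of lymphatic vessels, with changes of -0.86, -1.19 and -2.34. Prox1, another of the 5, was not called at 8 d (0.49) or 11 d (-0.49), and held 0.906 CPM in NoIR against 543 for Lyve1. How far the Lyve1 level came from lymphatic vessels was not tested. The 1 call at 8 d was lost without NoIR replicate 1 or 2 or IR_8d replicate 1.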
